A study of Homo sapiens with 6 samples.

Results

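SAMD9 and SAMD9L are a pair of related genes that lie next to each other on chromosome 7. They were examined in PC3 cells, an established line of androgen-independent human prostate cancer. The series holds 6 whole-transcript expression arrays, 3 of cells with ectopic miR-34c and 3 of cells with a scramble mimic as the control. The sample titles and the series title name miR-34c, whereas the design text names miR-205, and the groups are given as in the titles. Nothing in the labels ties the arrays to separate cultures, so errors and p-values rest on variation among 3 arrays per group, which may be technical. The SE of a log2 change is that of the linear model fit (limma), moderated by drawing each gene's variance toward that of all genes. The members were chosen by name, with their large difference between these groups already known, from the probe sets that the platform annotation pairs with exactly 1 gene symbol. These were 2 genes of 18376, each with 1 probe set (8140967 for SAMD9, Entrez gene 54809, and 8140971 for SAMD9L, Entrez gene 219285). Their values in this contrast are therefore a description and carry no test. No probe set shared by several genes named either member. In bulk RNA, more cells with a transcript and more of it per cell cannot be told apart.

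SAMD9 and SAMD9L encode large cytoplasmic proteins with a sterile alpha motif (SAM) domain. Interferons induce both genes. The proteins restrict poxviruses and other viruses, and in their active state they cleave the transfer RNA for phenylalanine, which stalls ribosomes and lowers protein synthesis in the cell. SAMD9L has also been linked to the fusion of early endosomes and the breakdown of cytokine receptors. Inherited variants that make either protein overactive cause bone marrow failure.

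Interferons act on such genes through a promoter element, the interferon-stimulated response element, whose core is a repeat of GAAA with 2 bases between (GAAANNGAAA). The promoter windows of both members are shown because the genes moved together. Each runs from 250 bases before to 50 bases after the annotated start of the gene, on the minus strand, and is taken from RefSeq (GRCh38.p14). The SAMD9 window is chr7:93117930-93118229 and the SAMD9L window is chr7:93148336-93148635. Capitals mark the longest runs that the 2 windows share, each of 10 bases.
SAMD9: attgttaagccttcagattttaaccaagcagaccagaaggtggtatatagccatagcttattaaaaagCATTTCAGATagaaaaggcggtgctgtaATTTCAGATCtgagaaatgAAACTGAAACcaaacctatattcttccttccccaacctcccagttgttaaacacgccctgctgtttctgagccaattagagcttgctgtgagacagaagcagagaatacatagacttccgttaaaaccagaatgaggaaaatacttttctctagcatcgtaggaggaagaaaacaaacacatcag
SAMD9L: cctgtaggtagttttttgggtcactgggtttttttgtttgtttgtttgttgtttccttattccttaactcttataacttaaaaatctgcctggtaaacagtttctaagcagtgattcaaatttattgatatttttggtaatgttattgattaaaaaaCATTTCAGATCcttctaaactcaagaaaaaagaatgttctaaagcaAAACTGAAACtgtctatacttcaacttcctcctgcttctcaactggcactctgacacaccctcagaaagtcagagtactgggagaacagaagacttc
The shared runs are CATTTCAGAT, ATTTCAGATC and AAACTGAAAC, of which the first 2 overlap in SAMD9L and lie apart in SAMD9. AAACTGAAAC begins 135 bases before the start of SAMD9 and 47 bases before that of SAMD9L. It was found, on either strand, in 55 of 35116 RefSeq promoter windows of this length (0.157%), and CATTTCAGAT in 33 (0.094%). Only the windows of SAMD9 and SAMD9L held both on the strand of the gene. The runs were found by comparing these windows, so their rarity is a description.

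The run AAACTGAAAC carries most of the response element. With the base before it, the SAMD9 window holds the full core, GAAACTGAAA, which occurred on either strand in 3.57% of all windows. In SAMD9L the base before the run is A in place of G, so the full core is not in this window, and the shorter form AAANNGAAA, which overlaps it, is. AAANNGAAA was searched after the SAMD9L window was seen and occurred in 10.5% of all windows. The gamma-activated site TTCNNNGAA, the other main interferon element, was in neither member's window and in 7.66% of all. Of 25 interferon-stimulated genes with a window, from a list given further on, 15 held the full core and 18 the shorter form. Of 13 other genes with a SAM domain and a window, 0 held either form. Over all tested genes with a window, 3.03% held the full core and 8.21% the shorter form, so nothing is read from this 0. A match is a description of these letters, not a bound site.

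The same element can be compared in genes whose array profiles came closest to the members (given below), with AAANNGAAA in capitals and 8 bases on each side, read on the strand of the motif.
SAMD9: gagaaatgAAACTGAAAccaaacct
SAMD9L: ctaaagcaAAACTGAAActgtctat
MX1: cagaaatgAAACCGAAActgaattg
IFIT1: gaaaggggAAAGTGAAActaaagct
IFIT1: acctagggAAACCGAAAggggaaag
OAS1: tgatttgcAAAAGGAAAgtgcaaag
MX1 and both IFIT1 sites shown have G before the capitals, as SAMD9 has, and thus the full core. SAMD9L and OAS1 have another base there. IFIT1 held a further AAANNGAAA from 177 to 169 bases before its start. Windows were found for 4 of the 5 genes, and that of CLTRN held none of the motifs. OAS2 is named only.

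**Figure D1:**
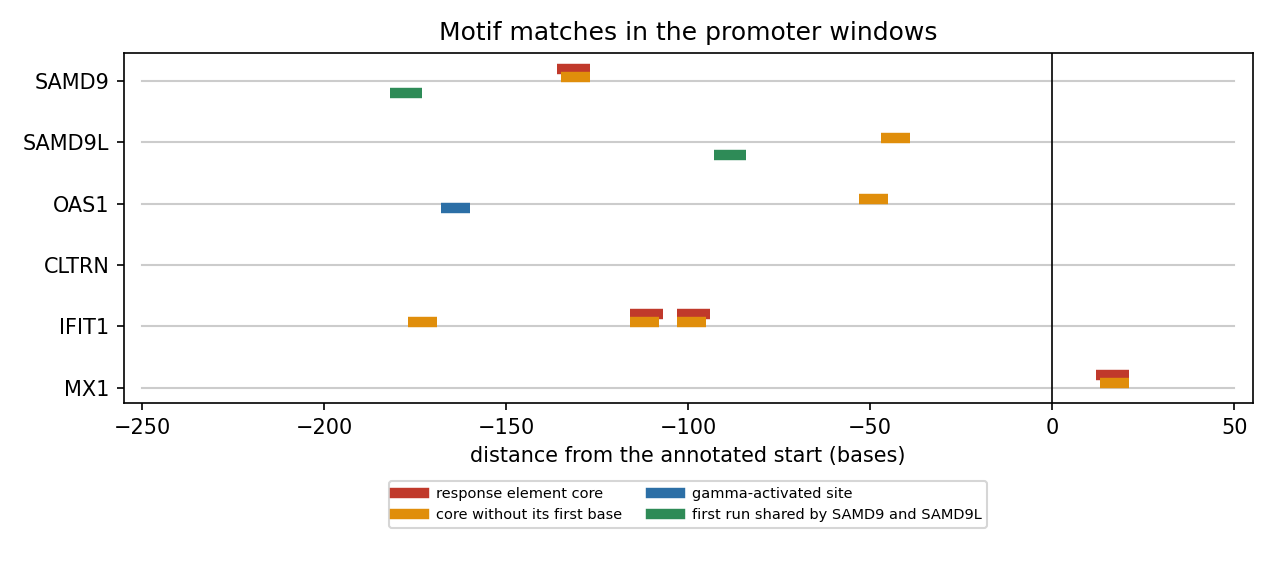
Positions of motif matches in the RefSeq promoter windows of SAMD9, SAMD9L and 4 genes with like array profiles. The horizontal axis is the distance from the annotated start in bases, and each bar spans 1 match. The core lies 136 to 127 bases before the start in SAMD9, and the form without its first base lies 47 to 39 bases before the start in SAMD9L.

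The deposited values are on the log2 scale relative to a reference that differs between probe sets and is not described, so 0 is no absence of the transcript and levels of the members cannot be set against each other. SAMD9 values were 1.82, 1.76 and 2.03 in miR-34c replicates 1 to 3. In scramble replicates 1 to 3 they were -1.73, -1.81 and -1.78. The groups did not overlap, and the lowest miR-34c array stood 3.49 above the highest scramble array on the log2 scale. The means were 1.87 ± 0.14 with miR-34c and -1.78 ± 0.04 with scramble (SD, n = 3 each). This is a log2 change of 3.64 ± 0.09 (SE), or 12.5-fold.

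SAMD9L values were 1.88, 1.93 and 2.13 in miR-34c replicates 1 to 3. In scramble replicates 1 to 3 they were -2.09, -1.86 and -1.87. Again the groups did not overlap, with 3.74 between the nearest arrays. The means were 1.98 ± 0.13 with miR-34c and -1.94 ± 0.13 with scramble (SD, n = 3 each), a log2 change of 3.92 ± 0.10 (SE), or 15.1-fold. All 3 miR-34c arrays lay above all 3 scramble arrays in 15.4% of all genes, and nothing is read from the members' count of 2 against this share, since they were chosen on this contrast.

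**Figure D2:**
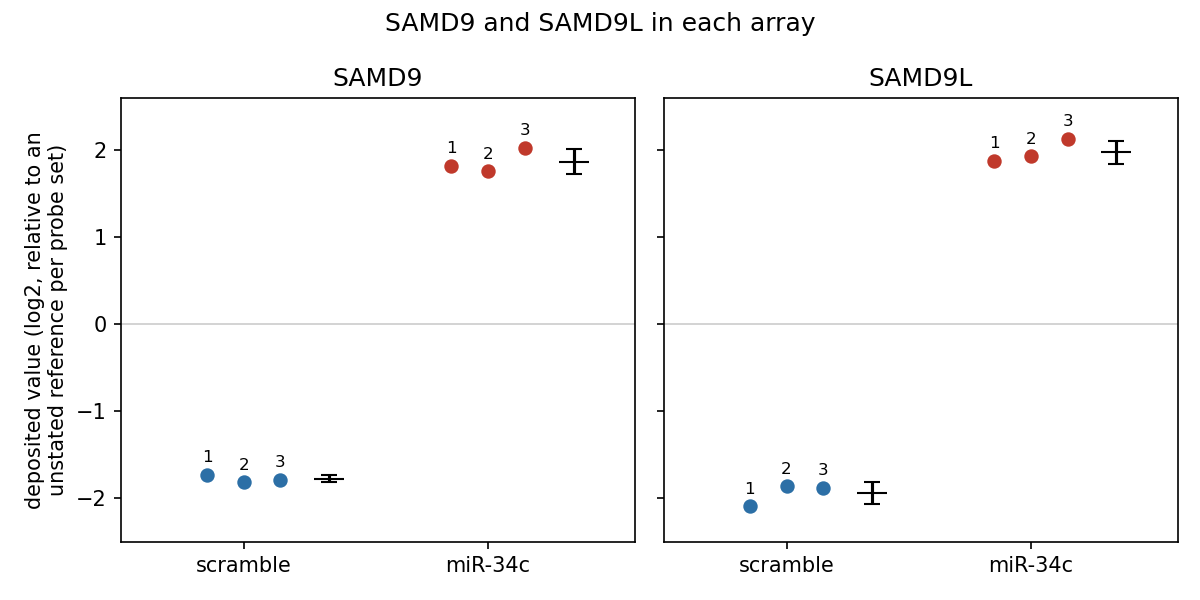
Deposited log2 values of SAMD9 (left) and SAMD9L (right) in each array, numbered by replicate, with the group mean and SD of 3 arrays as a bar beside the points. Scramble arrays lie between -2.09 and -1.73 and miR-34c arrays between 1.76 and 2.13.

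The members shared the difference between groups. Over the 6 arrays Pearson's r between them was 0.999, a description that mostly carries the group difference. The value of SAMD9L minus that of SAMD9 was 0.06, 0.17 and 0.10 in miR-34c replicates 1 to 3 and -0.36, -0.05 and -0.09 in scramble replicates 1 to 3. The change of SAMD9L was thus larger by 0.28 ± 0.10 on the log2 scale (SE from the pooled SD of these differences, not moderated). Scramble replicate 1 stood lowest, and without this array the difference was 0.18. Whether the probe sets of these related genes share signal was not tested.

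Within the miR-34c group both members were highest in replicate 3. The 30 listed interferon-stimulated genes, which do not include the members, had their highest miR-34c value in that array in 27 cases. This is 90%, against 27.2% of all genes. The median of the 30 genes was 1.00, 0.96 and 1.25 in miR-34c replicates 1 to 3. Within the scramble group the members differed, with SAMD9 highest and SAMD9L lowest in replicate 1. The spread within groups was ordinary for both, with a pooled SD of 0.10 for SAMD9 and 0.13 for SAMD9L beside a median of 0.11 over all genes.

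By size of change SAMD9L had rank 2 and SAMD9 rank 5 among the 18376 genes. Above SAMD9L stood MX2, an antiviral GTPase, at a log2 change of 4.66 ± 0.13 (SE). Just below it were IFIT1, which binds foreign RNA (3.89 ± 0.08), and MX1, the GTPase paralog of MX2 (3.82 ± 0.14). SAMD9 was followed by OAS1, a sensor of double-stranded RNA (3.62 ± 0.08), and CLTRN, collectrin, a chaperone of amino acid transporters (3.57 ± 0.11). The order of SAMD9L, IFIT1 and MX1, and that of SAMD9, OAS1 and CLTRN, lay within these errors. In all settings tried SAMD9L ranked 2 to 3 and SAMD9 4 to 7. In all, 37 genes were at least 4-fold higher, 14 of them at least 8-fold, and 0 genes were at least 4-fold lower.

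The genes most like each member were taken by the smallest root mean square distance between profiles over the 6 arrays, each profile centred on its own mean. For SAMD9 they were OAS1 (0.08 on the log2 scale), CLTRN (0.12), OAS2 (0.14), IFIT1 (0.14) and SAMD9L (0.17). For SAMD9L they were IFIT1 (0.06), MX1 (0.12), OAS1 (0.17), SAMD9 (0.17) and CLTRN (0.19). So each member had the other among its 5 nearest, but not first. The distance mostly carries the size of the group difference, on which the members were chosen, so genes of like change come out nearest. It is a description, and nothing on shared regulation is read from it. Pearson's r over the 6 arrays was 0.9973 to 0.9995 for these pairs, and the points share the 6 arrays and the group difference.

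**Figure D3:**
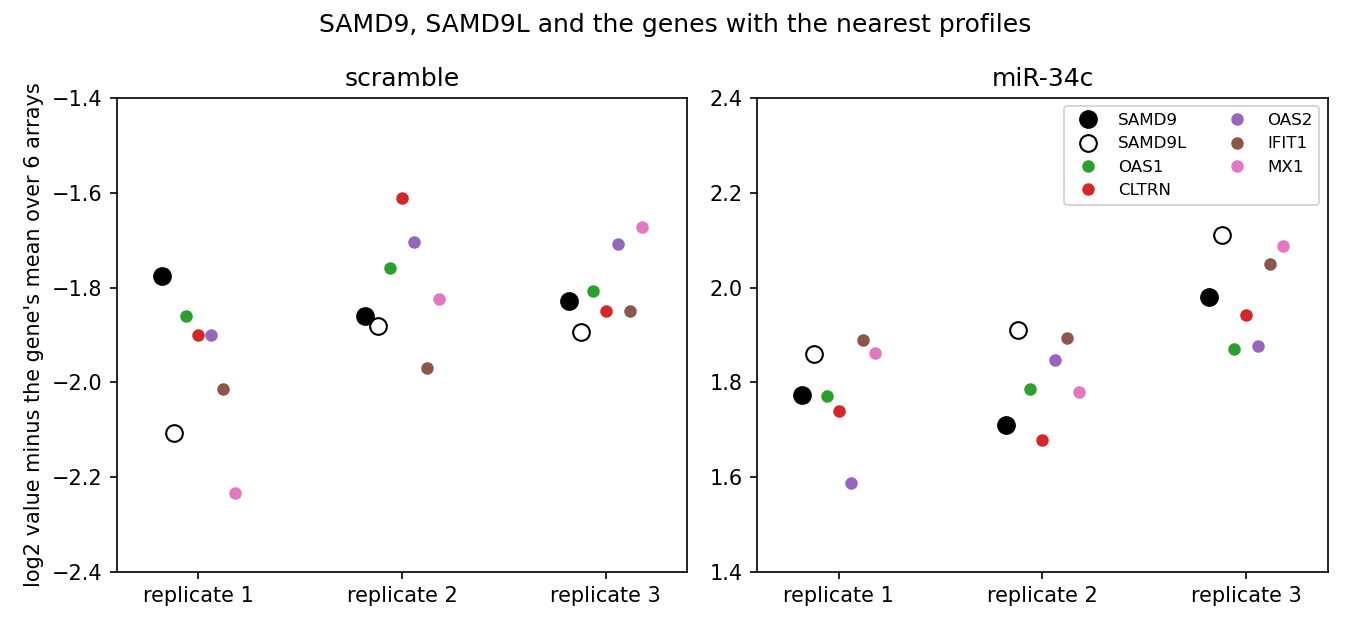
Log2 values minus each gene's mean over 6 arrays, for SAMD9 and SAMD9L (large symbols) and the 5 other genes nearest to them, in scramble (left) and miR-34c arrays (right) by replicate. The vertical axes cover different ranges of equal length. In miR-34c replicate 3 SAMD9 and SAMD9L stand above their values in replicates 1 and 2.

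Other genes were tested with limma over all 18376 genes. At a Benjamini-Hochberg adjusted p under 0.05, 7.75% of genes were higher and 8.05% lower with miR-34c. These 1425 and 1480 genes became 844 and 864 without miR-34c replicate 2, and 872 and 769 without miR-34c replicate 3. The balance turned with scaling, to 1840 higher and 1431 lower with arrays centred on their medians and to 1743 and 1608 with quantile normalization again. The median log2 change of all genes was -0.03. The lists that follow were drawn up with earlier results of these data known.

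Factors that act on translation or viral RNA, as the members do, mostly rose. Of 17 measured, 13 were higher and none lower, beside 7.75% higher and 8.05% lower over all genes, with a median log2 change of 1.48. Whether the rise goes with the action on translation or with induction by interferon was not tested. IFIT1, OAS1, OAS2 and OAS3 had the smallest adjusted p (limma, at most 1.21e-07), with OAS3 10.8-fold higher. EIF2AK2, the kinase PKR that halts initiation when it meets double-stranded RNA, was 2.17-fold higher (limma adjusted p = 2.84e-05). SLFN11, like the members a nuclease of transfer RNA, had a log2 change of -0.07 and missed the threshold. Values of SLFN12 (-0.26), SLFN13 (-0.02) and ISG20 (0.25), named after they were seen, did not pass either. The count was 13 with any 1 array left out.

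Of the 30 interferon-stimulated genes 29 rose and 0 fell, beside 7.75% higher and 8.05% lower over all genes, and their median log2 change was 2.36. MX2, IFITM1, which blocks the entry of viruses, IFIH1, a sensor of double-stranded RNA, and IFI44L had the smallest adjusted p. IFITM1, IFIH1 and IFI44L were 7.04-fold, 9.33-fold and 8.47-fold higher (limma adjusted p at most 1.07e-07). LY6E, named after its value was seen, was the 1 that did not pass (log2 change 0.36, limma adjusted p = 0.0819). It passed without scramble replicate 2 (limma adjusted p = 0.0403), and with centred arrays (0.0429), array weights (0.0435) or quantile normalization again (0.0465), and in 1 further setting given with the limits.

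Genes of interferon signalling itself moved in both directions. Of 19 measured 3 rose and 2 fell, beside 7.75% higher and 8.05% lower over all genes, with a median log2 change of 0.06. IRF9, the DNA-binding subunit of the factor that reads the response element, was 2.27-fold higher, with values of 0.63, 0.48 and 0.64 in miR-34c replicates 1 to 3 and -0.48, -0.58 and -0.73 in scramble replicates 1 to 3. IRF1, a transcription factor that responds to interferon gamma, was 1.79-fold higher (limma adjusted p = 0.000765). IL10RB, a shared receptor chain of interferon lambda, rose by 0.33 on the log2 scale (limma adjusted p = 0.0127), but did not pass without miR-34c replicate 3 (0.0635). IFNE, interferon epsilon, fell by 1.05 on the log2 scale, and IFNG, interferon gamma, fell by 0.53. Values around a reference do not show whether such interferon genes are expressed here. IFNB1, interferon beta, missed the threshold at a log2 change of 0.17 ± 0.11 (SE, limma adjusted p = 0.373). With quantile normalization again 5 rose in place of 3.

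**Figure D4:**
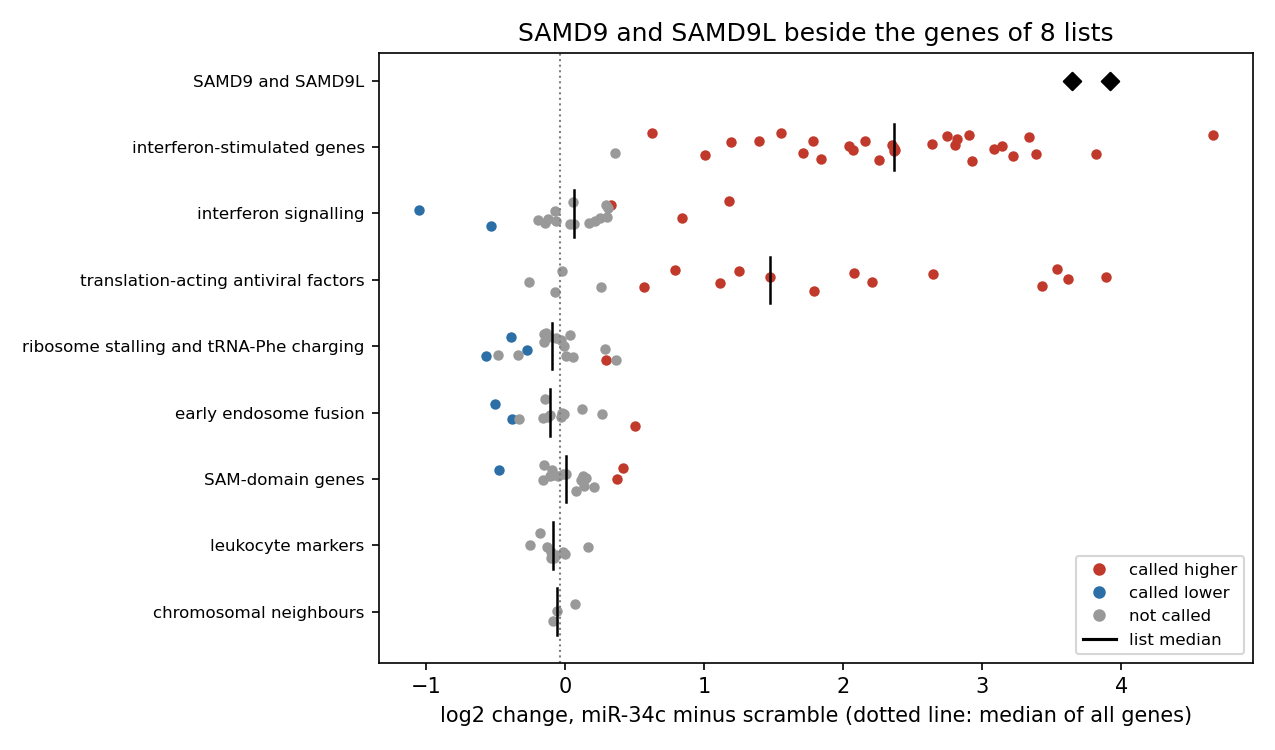
Log2 change, miR-34c minus scramble, of SAMD9 and SAMD9L (diamonds) and of each measured gene of 8 lists (points, coloured by the limma call at an adjusted p under 0.05). Vertical bars are list medians, 2.36 for interferon-stimulated genes and 1.48 for translation-acting factors, and the dotted line is the median of all genes, -0.03.

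Of 17 other genes with a SAM domain measured, 2 rose and 1 fell, with a median log2 change of 0.00362. Over all genes 7.75% were higher and 8.05% lower, and these counts are near those shares. SAMD4A and SAMD12 were 1.30-fold and 1.33-fold higher, and SASH1 fell to 0.718 of the scramble level (limma adjusted p = 0.00593). SAMD12 did not pass without any of miR-34c replicates 1 (limma adjusted p = 0.0532), 2 (0.113) or 3 (0.0939) or scramble replicates 2 (0.057) or 3 (0.0721), which left 1 rise each.

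The chromosomal neighbours were near 0. In the RefSeq gene order SAMD9 and SAMD9L are adjacent, and of the 4 genes on each side HEPACAM2, VPS50 and CALCR, all on the SAMD9L side, had a probe set of their own. HEPACAM2, a cell adhesion protein, had a log2 change of -0.08 ± 0.09, VPS50, a subunit of an endosomal tethering complex, one of 0.07 ± 0.08, and CALCR, the calcitonin receptor, one of -0.06 ± 0.17 (SE, n = 3 per group). None passed (limma adjusted p 0.588, 0.614 and 0.863).

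Genes of the steps on which the members act were examined too. Of 18 genes of ribosome stalling and phenylalanine transfer RNA charging, 1 rose and 3 fell, with a median log2 change of -0.10. Over all genes 7.75% were higher and 8.05% lower, and nothing is read from counts this small. FARSA and FARSB are the subunits of the enzyme that charges this transfer RNA. FARSA was 1.23-fold higher (limma adjusted p = 0.034) and FARSB had a log2 change of -0.03. The call of FARSA was lost without each array but scramble replicate 2 (limma adjusted p 0.0713 to 0.117), while 3 genes rose without scramble replicate 2. HBS1L, which rescues stalled ribosomes, fell to 0.676 of the scramble level (limma adjusted p = 0.00556). MAP3K20, the ZAK kinase that senses collided ribosomes, fell to 0.762, and its limma adjusted p rose from 0.0182 to 0.0533 and 0.0609 when miR-34c replicates 1 and 2 were left out, and to 0.0622 when scramble replicate 1 was. GCN1, another sensor of collisions, fell to 0.825 and did not pass without any 1 array (limma adjusted p 0.0557 to 0.131). Leaving out miR-34c replicate 2 or scramble replicate 1 left 1 fall.

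Of 13 genes of early endosome fusion 1 rose and 2 fell, with a median log2 change of -0.11. Beside 7.75% higher and 8.05% lower over all genes, nothing is read from these counts. STX12, an endosomal syntaxin, was 1.42-fold higher. HGS, which sorts ubiquitinated receptors, and EEA1, the tether of early endosomes, had 0.769 and 0.704 of their scramble level (limma adjusted p = 0.0136 and 0.0204). Both lost the call without miR-34c replicates 2 (limma adjusted p 0.0548 for HGS and 0.0578 for EEA1) and 3 (0.0594 and 0.0617), which left 0 falls. HGS alone lost it without scramble replicate 1 (0.052), and EEA1 without scramble replicates 2 (0.0667) and 3 (0.061), which left 1 fall each. RGL2, a reported partner of SAMD9, missed the threshold at a log2 change of 0.27 (limma adjusted p = 0.0616), but passed with centred arrays (0.0246), with array weights (0.0432) and after quantile normalization was repeated (0.0174).

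SAMD9L is also expressed in blood cells. Of 10 measured leukocyte and erythroid markers none passed the test at an adjusted p under 0.05 in limma, and 0 had an unadjusted p under 0.05. Their changes ran from -0.25 (FCGR3A) to 0.16 (PTPRC, the pan-leukocyte marker CD45), and the list median ran from -0.09 to 0.00044 in miR-34c arrays and from -0.04 to 0.03 in scramble arrays. The values around a reference do not show whether a marker is present. Their part in the change of SAMD9L was not tested. The loci of miR-34c and miR-205 had no probe set of their own here. The level of the ectopic miRNA was not checked.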

How the data were processed

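RNA from PC3 cells (Trizol) was labelled for whole-transcript arrays, per the labels' protocols. The authors processed the arrays with RMA in Affymetrix Expression Console, per the submitters' processing notes. The deposited log2 values lie around 0 (array medians -0.0303 to 0.0615), so a reference was subtracted in a step that no source here records. The log base is taken from RMA. Their genome build was not given in the sources used here.

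Probe sets with 1 symbol (19309 of 28868) were averaged per gene and array. limma 3.58.1 in R 4.3.3 was fitted to 18376 genes with group as the only term, and eBayes was run without a trend, since centred means do not carry brightness. The fit was tested on simulated data. Benjamini-Hochberg adjusted p under 0.05 counted as called. No 2 arrays were identical. Correlations between arrays were 0.774 to 0.875 within groups and 0.557 to 0.698 between them. The number of arrays limits the precision.

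The members and lists were chosen with earlier results of these data known. The genes named were the members, the 5 nearest to each in profile, their neighbours in rank and on the chromosome, up to 4 called genes per list with the smallest adjusted p, and a few preset genes. Listed genes without a probe set of their own were not analysed here. Alternatives were the variance prior, a block, scaling, array weights, the probe set chosen, group medians and leaving out arrays.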

Additional observations from a re-analysis of the deposited data

How the results depend on the processing

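The changes of SAMD9 and SAMD9L kept their direction in every setting run. Their log2 changes moved by more than the spread between arrays only with quantile normalization again (3.38 and 3.61), and lay at 3.56 to 3.70 and 3.84 to 3.97 when 1 array was left out. The excess of SAMD9L over SAMD9 was 0.18 to 0.34 in those fits. Without 1 array, called genes numbered 1641 to 2633 (844 to 1572 higher, 769 to 1385 lower), beside 2905 in all. In interferon signalling 5 genes rose with quantile normalization again. In ribosome stalling and transfer RNA charging 2 rose with a variance trend, with centred arrays or with quantile normalization, 3 with array weights, and 0 with the replicate block. Of early endosome genes 2 rose with centred arrays, quantile normalization or array weights. Of SAM-domain genes 1 rose with quantile normalization. Without 1 array, 0 to 3 stalling genes rose and 1 to 3 fell, 0 to 2 endosome genes fell, and 1 to 2 SAM-domain genes rose. The causes were not tested.

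Deviations of same-numbered arrays from their group means correlated at -0.00362, 0.117 and -0.0807. Those of arrays with different numbers correlated at -0.156 to 0.169. With 3 arrays per group, these values cannot tell whether same-numbered arrays were handled together, and the labels give only a number. With the replicate block 1334 genes were higher and 1367 lower, and the members' changes were the same. Among the genes named here, the calls of FARSA (limma adjusted p = 0.0534) and GCN1 (0.0603) were lost, and that of LY6E (0.0496) was gained.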

Other observations

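Of the 3 runs shared by the promoter windows of SAMD9 and SAMD9L, CATTTCAGAT and AAACTGAAAC lie at nearly equal spacing in both, whereas ATTTCAGATC does not keep its place between them. From the first base of CATTTCAGAT to the first base of AAACTGAAAC there are 47 bases in SAMD9 and 46 in SAMD9L. Among the other translation-acting factors 8 of 12 genes with a promoter window held the full response element core, against 3.57% of all windows.

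CLTRN, which stands on none of the lists, had a profile nearer to that of SAMD9 (0.12 on the log2 scale) than SAMD9L had (0.17). The log2 changes were 3.57 for CLTRN, 3.64 for SAMD9 and 3.92 for SAMD9L, and the distances mostly carry these. The distance compares profiles centred on each gene's own mean, since the deposited levels of different probe sets cannot be set against each other. The promoter window of CLTRN was the 1 among the 6 searched in which no motif was found.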
